A study of Mus musculus with 12 samples.

Results

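The comparison described here asked how the hippocampus of male mice with amyloid deposits differed at 9 months of age when Trem2 was knocked out. RNA of whole tissue was sequenced in bulk, and 6 of the 12 libraries of the study enter: 3 from mice labelled AppNL-G-F and 3 from mice labelled AppNL-G-F; Trem2 KO, all taken at 9 months. The other 6 libraries have the same genotypes at 3 months and share no mouse identifier with them. The libraries were chosen by their labels alone, and all 19152 genes with enough counts were compared. AppNL-G-F is a knock-in that makes the mouse's own App gene encode a humanised amyloid-β sequence with mutations known from familial Alzheimer's disease. Both groups carry it, so no mouse without amyloid pathology serves as a reference. The groups are called App-KI and Trem2-KO below, and difference always means Trem2-KO minus App-KI. Each library has its own mouse identifier, and libraries are numbered App-KI 1 to 3 and Trem2-KO 1 to 3. The labels give neither the deleted part of Trem2 nor the litters of the mice nor how the hippocampus was cut out.

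TREM2 is a lipid-sensing surface receptor that microglia, the resident macrophages of the brain, carry together with the adaptor TYROBP (DAP12). Ligand binding leads to phosphorylation of TYROBP, recruitment of the kinase SYK and calcium and PI3-kinase signals. In amyloid models, microglia that touch plaques need TREM2 to pass from a homeostatic state, marked by genes such as P2ry12 and Tmem119, to a plaque-associated state marked by Itgax, Cst7 and Clec7a. Bulk RNA mixes all cells of the tissue, so fewer cells of a type and less RNA per cell cannot be told apart in any value below.

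The 6 libraries held 15360564 to 22417397 counts. A count of 0 allows a level of up to 3 counts, or 0.134 to 0.195 CPM (read counts scaled to a common library size), as far as counting error goes. Tissue next to the hippocampus stood apart in single libraries. The 17 markers of choroid plexus and ependyma summed to 359 CPM in the library App-KI 2 and to 384 CPM in Trem2-KO 3, but to 3711 to 8008 CPM in the other 4. Transthyretin (Ttr), the main secreted protein of choroid plexus, was at 871, 11.3 and 926 CPM in App-KI and at 2420, 1706 and 25.1 CPM in Trem2-KO. Both groups thus held a low library, but the highest levels were in Trem2-KO. There the 17 markers summed to 8008 and 7819 CPM in Trem2-KO 1 and 2, while in App-KI they reached at most 3783 CPM. The 28 markers of meningeal and perivascular fibroblasts separated the groups instead: they summed to 467 to 542 CPM in App-KI and 745 to 973 CPM in Trem2-KO. Of the 17 markers of T, NK and B cells, Gzma had no count in any of the 6, and the list summed to 3.09 to 5.38 CPM over both groups.

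Trem2 itself was at 55.6, 52.6 and 49.8 CPM in the App-KI libraries and at 3.62, 3.83 and 3.77 CPM in the Trem2-KO libraries. The groups lie far apart and each library matches its label. The difference was -3.81 ± 0.11 on the log2 scale (standard error, SE), with an adjusted p of 4.12e-15 by edgeR's quasi-likelihood test. The other members of the TREM family (Trem1, Trem3, Treml1, Treml2, Treml4) had too few counts to be tested. App stood at 1215 ± 15.4 CPM with App-KI and 1190 ± 34.6 CPM with Trem2-KO (mean ± SD of 3 mice, the form used throughout), with overlapping libraries, a difference of -0.03 ± 0.05 and an adjusted p of 0.826. None of the 17 tested genes of amyloid processing, among them the secretase subunits and Adam10, passed the test.

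A gene is called when its p, adjusted over all tested genes, is under 0.05. By that rule 398 genes were called, 2.08% of those tested: 267 lower (1.39%) and 131 higher (0.684%) in Trem2-KO. The p-values measure the spread between mice of a group. At least a 2-fold difference, 1 on the log2 scale, was reached by 65 of the lower and 30 of the higher genes, and 2 on that scale by 16 and 5. The median difference of called genes was -0.57 for the lower and 0.59 for the higher ones, against 0.0066 over all tested genes. Of the 267 lower genes, 114 belong to one of the 52 gene lists used below, which lean towards microglia, and of the 131 higher genes 19 do. Libraries of the groups did not overlap for 17.3% of all genes, so that alone says little of a single gene. Leaving out App-KI 1, App-KI 3 or Trem2-KO 1 left 241, 175 and 213 calls. The calls that held without each of the 6 libraries in turn numbered 140, of which 117 were lower and 23 higher. With the fibroblast marker score of each library as a covariate, 23 genes remained called, all of them lower, while the median SE rose from 0.123 to 0.24. On chromosome 17, which carries Trem2, 13 of 776 genes with a known chromosome were called (1.68%), against 378 of 15790 on the others (2.39%).

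**Figure D1:**
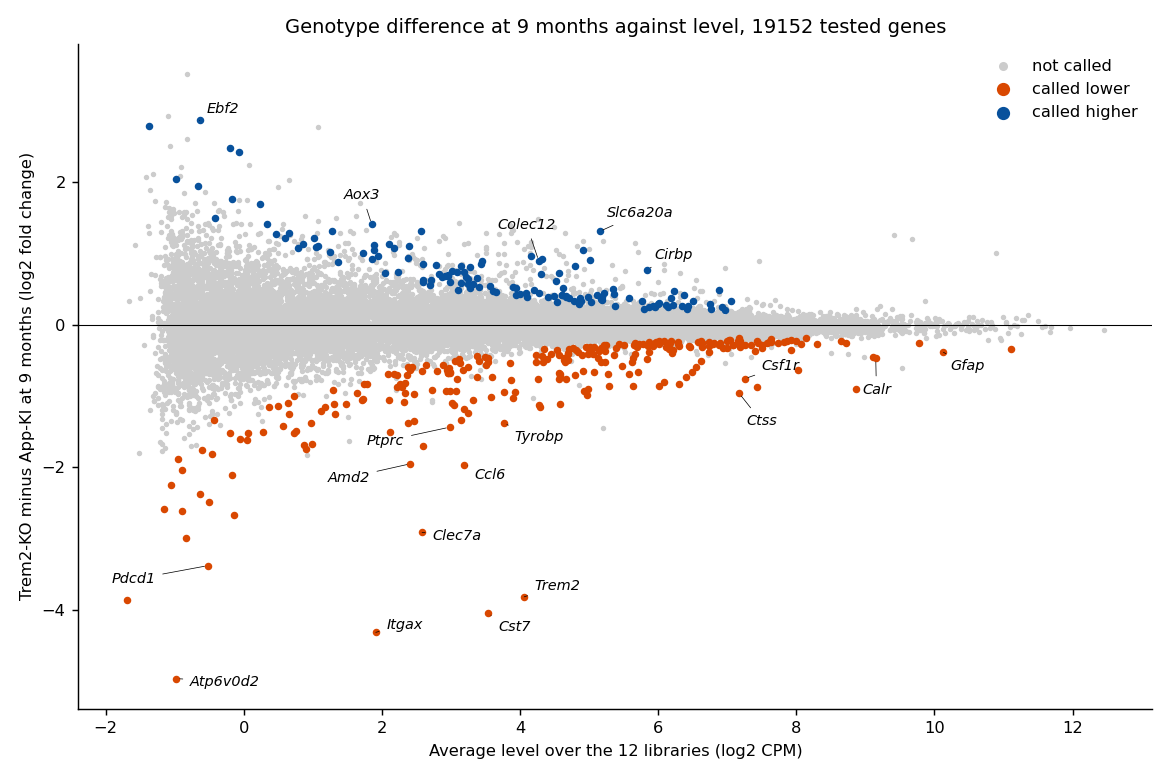
Average expression (log2 CPM over all libraries, horizontal axis) against the log2 difference between Trem2-KO and App-KI at 9 months (vertical axis) for the 19152 tested genes; orange points were called lower, blue points higher and grey points not called. The 267 lower genes reach further from 0 than the 131 higher ones, with Trem2 at -3.81.

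Several genes that carry the signal of TREM2 into the cell were lower alongside it. Of 24 tested genes of TREM2-TYROBP signalling, 8 were called lower and none higher, with a median difference of -0.51. Tyrobp, the adaptor, was at 27.9, 30.6 and 31.9 CPM in App-KI and at 14.6, 8.87 and 11.1 CPM in Trem2-KO, so the highest Trem2-KO library was still well below the lowest App-KI library. It fell by 1.38 ± 0.13 (adjusted p = 1.59e-06). The phosphatases that oppose the pathway were lower as well. Ptpn6 (SHP-1) went from 18.5 ± 2.88 to 8.13 ± 1.495 CPM (adjusted p = 1.67e-05). Inpp5d (SHIP1), a risk gene for Alzheimer's disease, was at 39.1 to 39.9 CPM in App-KI and 23.6 to 25.2 CPM in Trem2-KO and fell by 0.69 ± 0.08 (adjusted p = 8.55e-06).

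Downstream of the receptor, the Src-family kinase Lyn (-0.53 ± 0.08), the adaptor Lat2 (-1.11 ± 0.20), the adaptor Blnk (-0.64 ± 0.13) and the guanine nucleotide exchange factor Vav1 (-0.60 ± 0.14) were called. Blnk lost its call without App-KI 2 (adjusted p = 0.0506), and Vav1 without any App-KI library or Trem2-KO 1 (0.0644 to 0.139). Syk, the kinase that TYROBP recruits, was at 8.02, 6.38 and 8.40 CPM in App-KI and 5.03, 5.56 and 4.93 CPM in Trem2-KO. These libraries did not overlap, but the adjusted p was 0.0841. Plcg2, the phospholipase C of the pathway, differed by -0.28 ± 0.12 (adjusted p = 0.287), and Card9 by 0.06 ± 0.17 (0.927). The sheddase Adam10, which cuts TREM2 at the cell surface, was at 117 ± 5.91 and 113 ± 1.93 CPM with overlapping libraries.

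Several genes of the plaque-associated list were far lower in Trem2-KO. Of 32 tested members 13 were called lower and none higher, and the median was -0.46. Itgax (CD11c) was at 13.3, 14.8 and 15.2 CPM in App-KI and 0.662, 1.01 and 0.477 CPM in Trem2-KO (-4.31 ± 0.29, adjusted p = 4.72e-08). Cst7 (cystatin F, an inhibitor of cathepsins) was at 43.7, 41.8 and 45.9 CPM in App-KI and at 2.03, 3.07 and 2.86 CPM in Trem2-KO. Clec7a (dectin-1, a receptor for β-glucans) was at 19.8 to 22.1 CPM and at 1.64 to 4.03 CPM. In these 3 genes the App-KI libraries lay close together and all Trem2-KO libraries were far below them. At 3 months App-KI mice had little of them too: Cst7 stood at 0.856, 0.342 and 0.0976 CPM, Itgax at 0.367, 0 and 0.390 CPM and Clec7a at 0.408, 0.285 and 0.439 CPM.

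Other members of the list were lower by less. The chemokine Ccl6 (-1.96 ± 0.12) and the lysosomal glycoprotein Cd68 (-1.13 ± 0.10) fell, as did Cd84 (-1.13 ± 0.14), the extracellular matrix gene Mamdc2 (-1.06 ± 0.19) and the inhibitory receptor Lilrb4a (-1.49 ± 0.24), whose counts may be shared with a near-identical copy. Gpnmb, a lysosomal glycoprotein, was at 26.7, 31.1 and 25.1 CPM in App-KI and at 15.1, 14.4 and 13.5 CPM in Trem2-KO (adjusted p = 0.000352). Lpl, the lipoprotein lipase, fell by 0.46 ± 0.08 (adjusted p = 0.00198) and Ank, a pyrophosphate transporter, by 0.27 ± 0.05 (0.00204). The oxidase subunit Cybb (-1.12 ± 0.23) and the actin-capping Capg (-0.60 ± 0.14) were called, but Cybb not without App-KI 3 (adjusted p = 0.0853) or Trem2-KO 1 (0.0602), and Capg not without App-KI 2 or 3 or Trem2-KO 1 (0.0664 to 0.140).

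Several genes often listed beside Cst7 and Itgax were not called. Spp1 (osteopontin) was at 49.99, 70.5 and 55.1 CPM in App-KI and at 53.5, 25.01 and 54.7 CPM in Trem2-KO, where only Trem2-KO 2 was low (adjusted p = 0.616). Igf1 was at 11.9 ± 1.38 and 8.61 ± 0.22 CPM (adjusted p = 0.061). Axl, a receptor for apoptotic cells, differed by -0.22 ± 0.07 (0.110), and Csf1, the colony-stimulating factor that feeds microglia, by -0.16 ± 0.08 (0.373). Cd9 (-0.28 ± 0.10), Cd63 (0.14 ± 0.25) and Timp2 (-0.09 ± 0.09) have adjusted p-values of 0.217, 0.861 and 0.724. These tetraspanins and Timp2 are also expressed outside microglia.

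**Figure D2:**
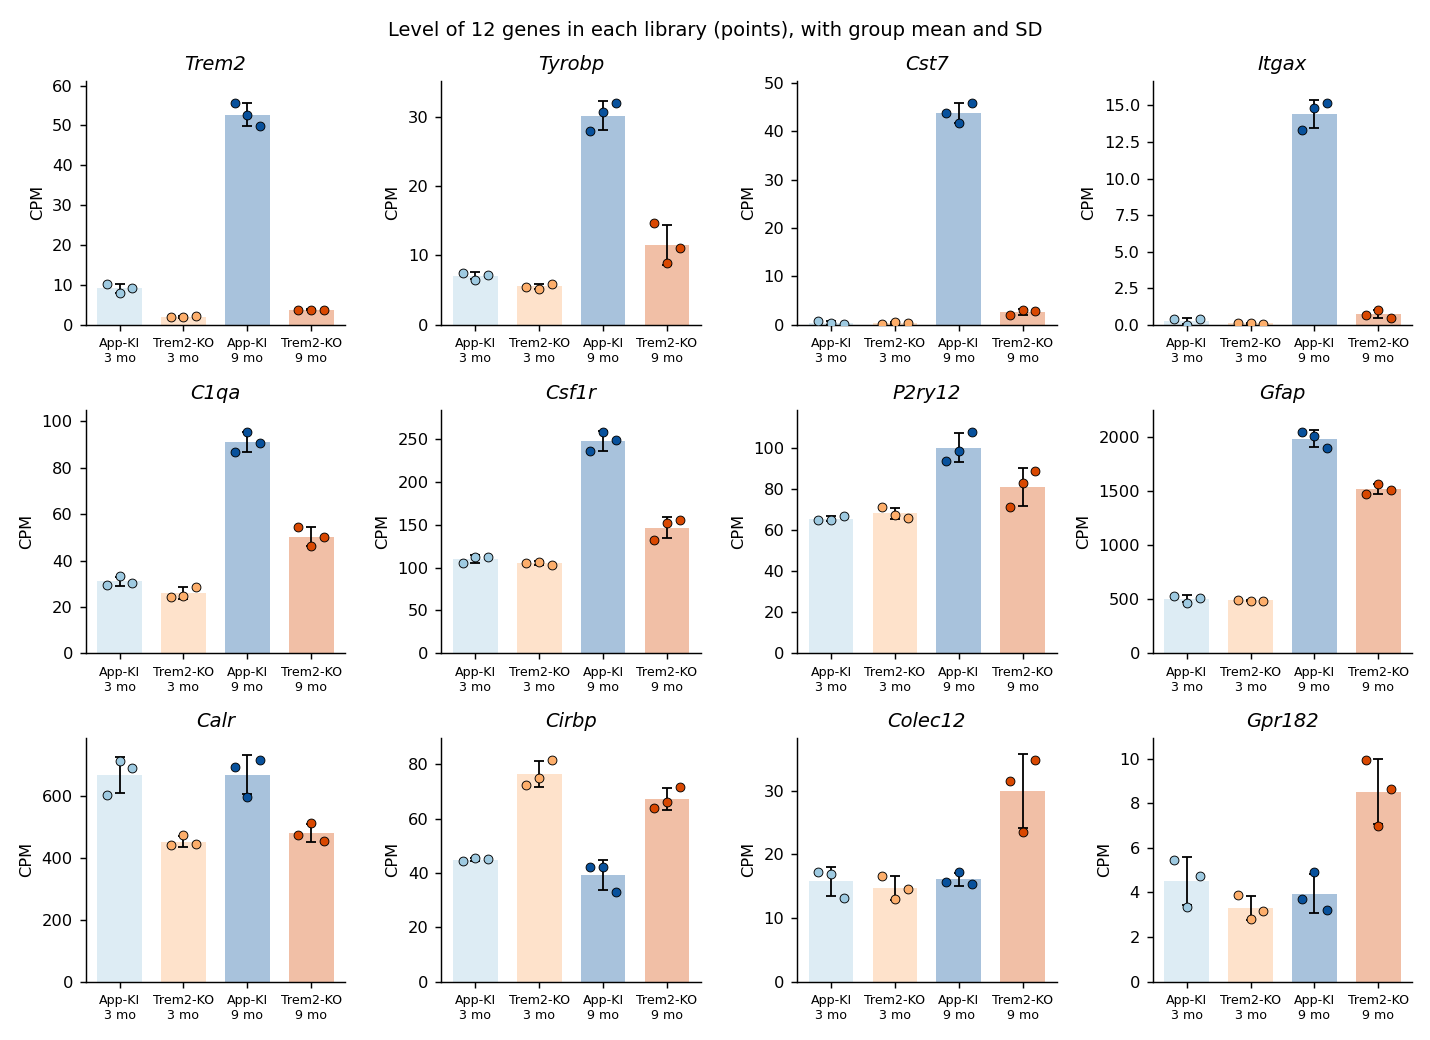
Level in CPM (vertical axes, each starting at 0) of 12 genes in the 4 groups; points are libraries, bars the mean of 3 and error bars the SD. Trem2, Cst7 and Itgax are low in every library but those of App-KI at 9 months, with Trem2 at an intermediate level in App-KI at 3 months, while Calr and Cirbp separate the genotypes at both ages.

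Markers of homeostatic microglia and of microglia in general were also lower, not only those of the plaque-associated state. Of 19 homeostatic genes tested, 12 were called lower and none higher; all 19 differences were below 0, with a median of -0.50. The list score, the mean log2 CPM of the pan-microglial genes, was 5.31, 5.35 and 5.33 in App-KI and 4.66, 4.63 and 4.63 in Trem2-KO. Of these 22 genes 15 were called lower, and all 22 differences were below 0, with a median of -0.74. The fractalkine receptor Cx3cr1 fell from 55.5 ± 1.503 to 34.2 ± 2.94 CPM, and the microglial genes Selplg, Fcrls, Gpr34 and Olfml3 fell by 0.69 ± 0.07, 0.57 ± 0.07, 0.65 ± 0.09 and 0.53 ± 0.08.

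The purinergic receptors and Tmem119 differed by less. P2ry12, the ADP receptor that steers process extension, was at 93.8, 98.5 and 108 CPM in App-KI and at 71.0, 82.9 and 88.9 CPM in Trem2-KO. The highest Trem2-KO library was just below the lowest App-KI library, and the call at -0.31 ± 0.07 (adjusted p = 0.024) was lost without App-KI 2 (0.0506), App-KI 3 (0.162) or Trem2-KO 1 (0.130). P2ry13 (-0.52 ± 0.11, adjusted p = 0.00953) lost its call without App-KI 3 (0.0738) or Trem2-KO 1 (0.0599), and the fructose transporter Slc2a5 (-0.60 ± 0.13) without App-KI 1 or 3 or Trem2-KO 1 (0.0642 to 0.0995). Tmem119 was at 49.2, 49.4 and 47.9 CPM and at 40.9, 42.1 and 46.1 CPM, which do not overlap, with a difference of -0.18 ± 0.07 and an adjusted p of 0.185. Sall1, the transcription factor that keeps microglial identity, differed by -0.29 ± 0.10 (0.152), and Crybb1 by -0.04 ± 0.22 (0.967).

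Among pan-microglial genes the complement subunits and the lysosomal protease cathepsin S had some of the smallest p-values. C1qa was at 86.8, 95.6 and 90.8 CPM in App-KI and at 54.5, 46.3 and 50.1 CPM in Trem2-KO, and C1qc at 117, 126 and 112 CPM and at 65.7, 63.4 and 65.9 CPM. Ctss was at 276 to 300 CPM in App-KI and 138 to 166 CPM in Trem2-KO (-0.96 ± 0.07, adjusted p = 2.56e-08). In none of these did the groups overlap. The leukocyte phosphatase Ptprc (CD45) was at 17.4, 17.97 and 17.5 CPM against 6.09, 7.04 and 6.36 CPM, and the immune checkpoint Vsir fell by 0.93 ± 0.08. Cd37 was called at an adjusted p of 0.0188, but only in the fit without Trem2-KO 3 when a library was left out (up to 0.0746 in the other 5). Itgam (0.0296) lost its call without any App-KI library or Trem2-KO 1 (0.0514 to 0.168), and Unc93b1 (0.0187) without App-KI 1 or 2 or Trem2-KO 1 (0.0766 to 0.110). Aif1 (IBA1), a common microglial stain, was at 6.07 ± 0.32 and 4.39 ± 0.17 CPM without overlap (adjusted p = 0.125), and Spi1 (PU.1) at 7.29 ± 1.55 and 4.36 ± 0.53 CPM (0.0721).

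With the fibroblast score as a covariate, 9 pan-microglial genes stayed called with a median of -0.73, and 2 homeostatic genes with a median of -0.38. In the plaque-associated list 4 genes stayed called, and its median was -0.63. In TREM2-TYROBP signalling 2 genes, Trem2 and Tyrobp, did. The summed pan-microglial markers themselves ran from 2082 to 2151 CPM in App-KI and from 1385 to 1735 CPM in Trem2-KO. These sums include Trf, which is also in the myelin list, so they are not of microglia alone. Among the Trem2-KO libraries, Trem2-KO 3 was lowest in this sum and in that of the myelin list (7765 CPM). The part of Trf in the sums was not tested. In 18 of 22 genes each Trem2-KO library lay below each App-KI library, a separation that 9.04% of all genes show.

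**Figure D3:**
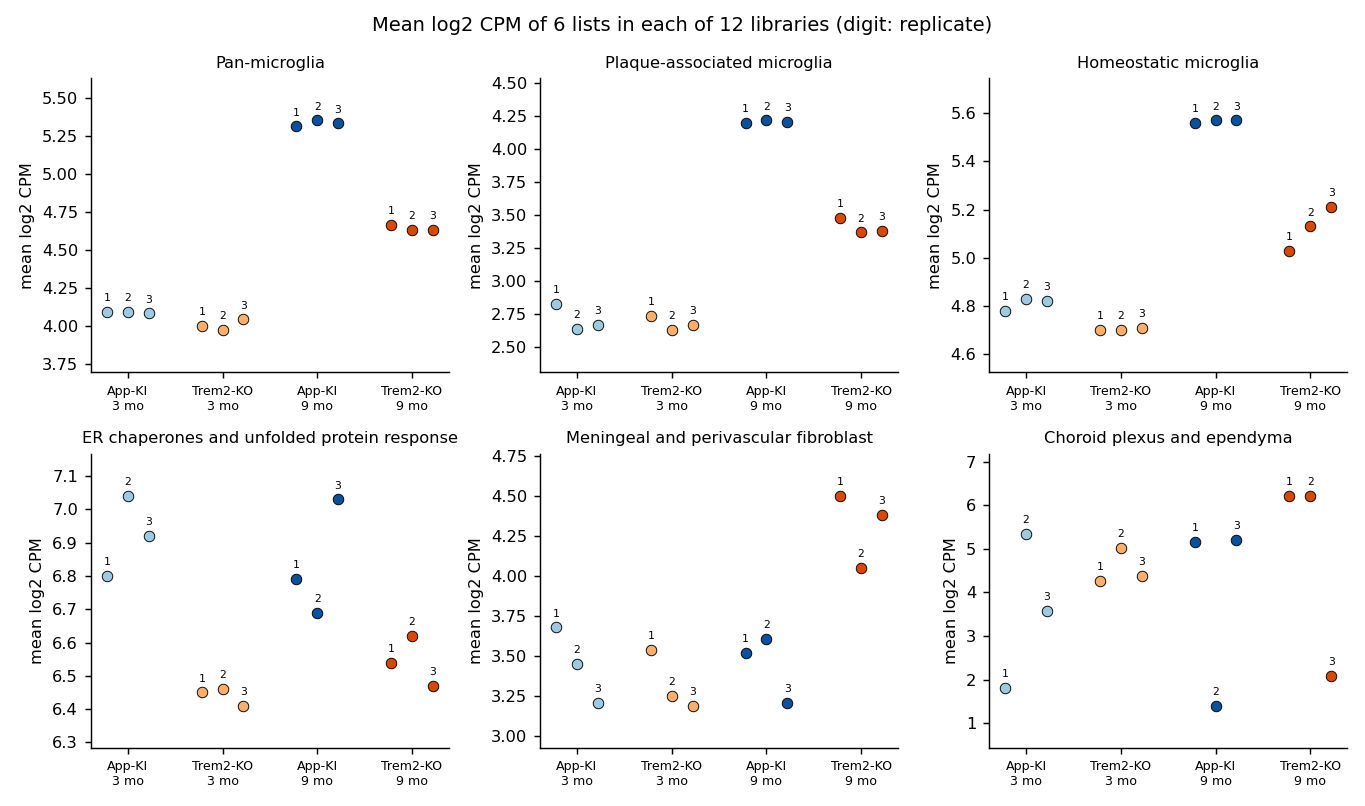
Mean log2 CPM of 6 gene lists (vertical axes) in each of the 12 libraries by group; each point is 1 library. The pan-microglial and plaque-associated scores of the Trem2-KO libraries at 9 months (4.63 to 4.66 and 3.37 to 3.48) sit between those of App-KI at 9 months and both groups at 3 months; the fibroblast score is higher in Trem2-KO at 9 months, and the choroid plexus score spreads over all groups.

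Factors on which microglia depend for survival and identity were lower in part. Of 25 tested, 8 were called lower and none higher, with a median of -0.36, and 5 were called without Trem2-KO 1. Csf1r, the receptor that microglia need to survive, was at 236, 258 and 249 CPM in App-KI and at 132, 152 and 155 CPM in Trem2-KO, a clear separation (-0.76 ± 0.06, adjusted p = 4.72e-08). Neither of its ligands was called, and Il34 was at 41.2 ± 0.59 and 37.9 ± 4.10 CPM, with overlap (adjusted p = 0.561). The transcription factor Irf8 was at 28.7, 27.4 and 31.9 CPM in App-KI and at 13.6, 16.5 and 13.1 CPM in Trem2-KO, and fell by 1.03 ± 0.11 (adjusted p = 6.60e-06). Irf5 (-0.65 ± 0.13) lost its call without Trem2-KO 1 (adjusted p = 0.0626), and Ikzf1 (-0.59 ± 0.14) without any library but App-KI 3 (0.0600 to 0.162).

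Receptors for transforming growth factor β, which maintains the homeostatic state, differed less. Tgfbr1 was at 63.6, 72.4 and 72.2 CPM in App-KI and at 47.9, 54.4 and 54.5 CPM in Trem2-KO (-0.41 ± 0.07, adjusted p = 0.00172). Tgfbr2 was called at an adjusted p of 0.0423 but in none of the 6 fits that leave out a library (0.0572 to 0.154). The ligand Tgfb1 fell just short, at 8.46 ± 0.97 and 5.92 ± 0.53 CPM without overlap (adjusted p = 0.0548). Csf3r, the receptor of granulocyte colony-stimulating factor, fell by 0.93 ± 0.15 (adjusted p = 0.000761). Mef2c (adjusted p = 0.515) and Runx1 (0.134) were not called.

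Receptors by which microglia sense antibodies, microbes and complement were lower in most cases that could be tested. In the Fc receptor list, 4 of 5 tested genes were called lower and Fcgrt higher. Fcgr3 was at 61.2, 60.5 and 62.2 CPM in App-KI and at 29.2, 33.5 and 30.6 CPM in Trem2-KO (-0.98 ± 0.07, adjusted p = 4.72e-08). Fcgr2b, the inhibitory Fc receptor, was at 20.6 to 21.3 CPM and at 7.96 to 9.34 CPM, and Fcer1g, the signalling chain of activating Fc receptors, at 16.1 to 19.3 CPM and at 6.80 to 10.1 CPM. So both activating and inhibitory receptors were lower, with no overlap. Fcgr1 (-1.04 ± 0.21) lost its call without App-KI 2 (adjusted p = 0.0777) or Trem2-KO 1 (0.0648). Fcgrt (0.37 ± 0.09), the neonatal Fc receptor that endothelium also expresses, lost it without App-KI 1 (0.0898), App-KI 3 (0.215) or Trem2-KO 1 (0.182). Without Trem2-KO 1 the list had 3 calls.

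Of 14 tested Toll-like receptors and partners, 9 were called lower, with a median of -0.88. The list had 5 calls without App-KI 2 and 4 without Trem2-KO 1. Tlr2, the receptor for bacterial lipopeptides, was at 9.97, 10.03 and 12.1 CPM in App-KI and at 3.71, 4.50 and 3.08 CPM in Trem2-KO (-1.502 ± 0.18, adjusted p = 3.11e-05). Its coreceptor Cd14 was at 11.2 to 12.8 CPM and at 4.07 to 5.03 CPM, and Ly86 fell by 1.16 ± 0.11. The endosomal receptor Tlr7 fell by 0.88 ± 0.16 (adjusted p = 0.00276). Tlr4 was at 4.17 ± 0.77 and 3.70 ± 0.51 CPM with overlapping libraries (adjusted p = 0.758). Tlr3 was at 23.3 ± 0.25 and 25.9 ± 2.24 CPM (0.547), and the adaptor Myd88 differed by -0.19 ± 0.15 (0.621). Tlr1 lost its call without Trem2-KO 1 (0.0648), Tlr13 without App-KI 2 or 3 or Trem2-KO 1 (0.0542 to 0.0931), Cd180 without any library but Trem2-KO 2 (0.0528 to 0.126) and Tlr12 without each of the 6 in turn (0.0528 to 0.123).

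In the list of inhibitory myeloid receptors, 6 of 15 tested genes were called lower. Lair1, a collagen receptor, was at 26.7, 26.8 and 27.0 CPM in App-KI and at 13.4, 14.8 and 13.7 CPM in Trem2-KO (-0.94 ± 0.09, adjusted p = 1.74e-06). Siglech, a member of the homeostatic list, fell by 0.49 ± 0.09. Sirpa, which neurons also express and which binds CD47, was at 438 to 458 CPM and 371 to 401 CPM, and its call (-0.22 ± 0.05, adjusted p = 0.012) was lost without Trem2-KO 1 (0.0693). Havcr2 (TIM-3) was called at 0.0165 and lost the call without App-KI 1 or 3 or Trem2-KO 1 (0.0508 to 0.0921). Cd33, another risk gene for Alzheimer's disease, was at 11.6 ± 0.41 and 9.78 ± 0.83 CPM (adjusted p = 0.404).

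The complement list split. Of 20 tested genes 7 were called lower and 2 higher, with a median of 0.003. The lower ones were the C1q subunits, the anaphylatoxin receptor C3ar1 (15.4 to 16.0 CPM against 7.64 to 8.87 CPM, adjusted p = 0.000105) and the complement-binding integrin subunits Itgb2 (-1.02 ± 0.11), Itgam and Itgax. The higher ones were C1s1 (1.08 ± 0.26) and Serping1 (0.91 ± 0.18), the protease of C1 and its inhibitor, which lost their calls, C1s1 without any library but Trem2-KO 3 (0.0637 to 0.146) and Serping1 without App-KI 1 or 3 or Trem2-KO 1 or 3 (0.0577 to 0.128). With the fibroblast score as a covariate Serping1 differed by -0.03 and had no call. C3 was at 5.04 ± 1.82 and 6.09 ± 1.71 CPM with overlap (adjusted p = 0.777). C4b, whose reads cannot be told from those of C4a, was at 391 ± 18.6 and 327 ± 18.7 CPM (adjusted p = 0.571), and Clu at 1502 ± 88.5 and 1445 ± 107 CPM (0.743).

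Of 15 chemokines and receptors tested, 4 were called lower and none higher. Ccl3 (MIP-1α) was at 2.90, 2.57 and 2.89 CPM in App-KI and at 0.574, 0.287 and 0.424 CPM in Trem2-KO, near the limit that a count of 0 allows (-2.67 ± 0.38, adjusted p = 0.000206). Ccl4, its close relative, was called at -1.76 ± 0.40 but not without App-KI 1 or 3 or Trem2-KO 2 or 3 (adjusted p 0.0578 to 0.116). Ccr2, the receptor of inflammatory monocytes, was at 0.475, 0.322 and 0.328 CPM in App-KI and at 1.10, 1.05 and 1.59 CPM in Trem2-KO, without overlap (1.70 ± 0.48, adjusted p = 0.0713). Of 18 inflammasome and cytokine genes, only the interleukin-10 receptor Il10ra was called (-0.67 ± 0.13, adjusted p = 0.00575). Nlrp3 (-0.85 ± 0.32, 0.208) and Casp1 (-0.56 ± 0.23, 0.274) were not.

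Adhesion molecules and surface antigens of macrophages gave 10 lower calls of 16 tested, with a median of -0.83. Cd52 was at 1.74, 2.09 and 3.61 CPM in App-KI and at 0.397, 0.815 and 0.477 CPM in Trem2-KO (-2.11 ± 0.38, adjusted p = 0.00284). Cd48 fell by 1.22 ± 0.20, the SLAM receptor Ly9 by 1.75 ± 0.25 and the tetraspanin Cd53 by 0.76 ± 0.09. Cd86, a costimulatory ligand for T cells, was called at 0.0211 and lost the call without any library but Trem2-KO 3 (0.0527 to 0.130).

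Antigen presentation showed large differences that did not pass the test. The invariant chain Cd74 was at 75.2, 152 and 62.6 CPM in App-KI and at 36.5, 35.2 and 34.3 CPM in Trem2-KO. All App-KI libraries were higher, App-KI 2 most of all, and the spread gave -1.46 ± 0.37 with an adjusted p of 0.108. H2-Ab1 was at 13.1, 28.2 and 11.2 CPM and at 9.84, 9.01 and 8.91 CPM (adjusted p = 0.189), and H2-Aa followed the same order (0.211). App-KI 2, the highest in these genes, is also the App-KI library with the lowest choroid plexus markers. All 7 class II genes tested were below 0, with a median of -0.55, and none was called, while 5 had an unadjusted p under 0.05. Of 16 class I genes none was called. B2m was at 180 ± 22.7 and 142 ± 16.2 CPM (0.312), and H2-K1 and H2-D1, whose reads near-identical copies may share, at adjusted p-values of 0.939 and 0.491. Of 29 interferon-response genes none was called, and 22 differences were above 0, with a median of 0.17. Ifit1 was at 6.91, 9.28 and 3.87 CPM in App-KI and at 12.2, 14.1 and 17.98 CPM in Trem2-KO, without overlap (1.12 ± 0.51, adjusted p = 0.384). Gbp4, an interferon-inducible GTPase that is in no list, was called at 1.32 ± 0.29 (0.0362) with Trem2-KO 3 highest (14.5 CPM), but not without any one of the App-KI libraries (0.0943 to 0.165).

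Lysosomal proteases and hydrolases were lower in a subset. In the cathepsin and cystatin list 6 of 17 were called lower, and in the list of lysosomal membrane proteins and hydrolases 10 of 38, with medians of -0.21 and -0.06. Ctsz was at 127, 129 and 118 CPM in App-KI and at 72.9, 77.3 and 64.5 CPM in Trem2-KO (-0.80 ± 0.07). Ctsd, which neurons also contain, was at 869, 818 and 916 CPM and at 493, 524 and 369 CPM (-0.91 ± 0.13, adjusted p = 0.00811). Ctsb was at 1084 ± 7.38 and 903 ± 43.3 CPM, and Ctsh fell by 0.68 ± 0.09. Laptm5, a lysosomal protein of blood and immune cells, was at 144, 148 and 148 CPM and at 75.1, 89.8 and 81.7 CPM. The hydrolases Hexa (-0.60 ± 0.06) and Gusb (-0.77 ± 0.09) and progranulin (Grn, 143 to 150 CPM against 98.5 to 109 CPM) fell with adjusted p-values of 5.73e-06, 2.58e-05 and 8.97e-06. Lamp5 (adjusted p = 0.0398) lost its call without any library but Trem2-KO 3 (0.0644 to 0.158), and Man2b1 (0.0240) without App-KI 1 or 3 or Trem2-KO 1 or 3 (0.0519 to 0.127).

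The lowest level relative to App-KI was that of Atp6v0d2, a subunit of the vacuolar proton pump. It had 89 counts over the 3 App-KI libraries and 3 over the Trem2-KO libraries. The ratio after scaling was 2.87% (exact 95% interval 0.581% to 8.66%, counting error only), and the adjusted p was 9.75e-05. Slc11a1 (NRAMP1), which pumps metal ions out of the phagosome, was at 15.3, 15.6 and 14.6 CPM in App-KI and at 3.84, 5.65 and 4.46 CPM in Trem2-KO (-1.71 ± 0.15).

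Of 26 tested genes of lipid handling only Lpl was called, and the median was 0.05. Apoe was at 1949, 1697 and 1901 CPM in App-KI and at 1716, 1683 and 1751 CPM in Trem2-KO, with overlap (-0.11 ± 0.05, adjusted p = 0.373). Abca1, the cholesterol exporter, was at 39.1 ± 3.14 and 40.7 ± 6.49 CPM. Apod was at 131, 171 and 120 CPM and at 321, 224 and 234 CPM, without overlap (0.89 ± 0.27, 0.178); it is also a gene of perivascular cells. None of 26 genes of sterol and fatty acid synthesis was called. In the iron list the exporter Slc40a1 (0.32 ± 0.08) and ceruloplasmin (Cp, 0.82 ± 0.17) were called higher and Slc11a1 lower of 13. Slc40a1 held its call without Trem2-KO 1 and lost it without any other library (adjusted p 0.0826 to 0.142), and Cp held it without App-KI 2 and lost it without any other (0.0643 to 0.156). Ferritin heavy chain (Fth1) overlapped between the groups (0.457).

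Of 17 phagocytosis genes 4 were called lower. Itgb5, an integrin subunit that binds apoptotic cells through bridging proteins, was at 149, 143 and 146 CPM in App-KI and at 87.2, 102 and 87.2 CPM in Trem2-KO (-0.66 ± 0.07, adjusted p = 4.21e-06). The engulfment factors Dock2 (-0.77 ± 0.13) and Arhgap25 (-0.82 ± 0.16) fell. The receptor tyrosine kinase Mertk was called at 0.00746 and lost the call without App-KI 3 (0.0592). Of 31 risk genes for Alzheimer's disease tested, 4 were called lower: Trem2, Inpp5d, Grn and Blnk. The risk genes Bin1 (0.298), Picalm (0.551), Abi3 (0.143) and Plcg2 were not called.

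**Figure D4:**
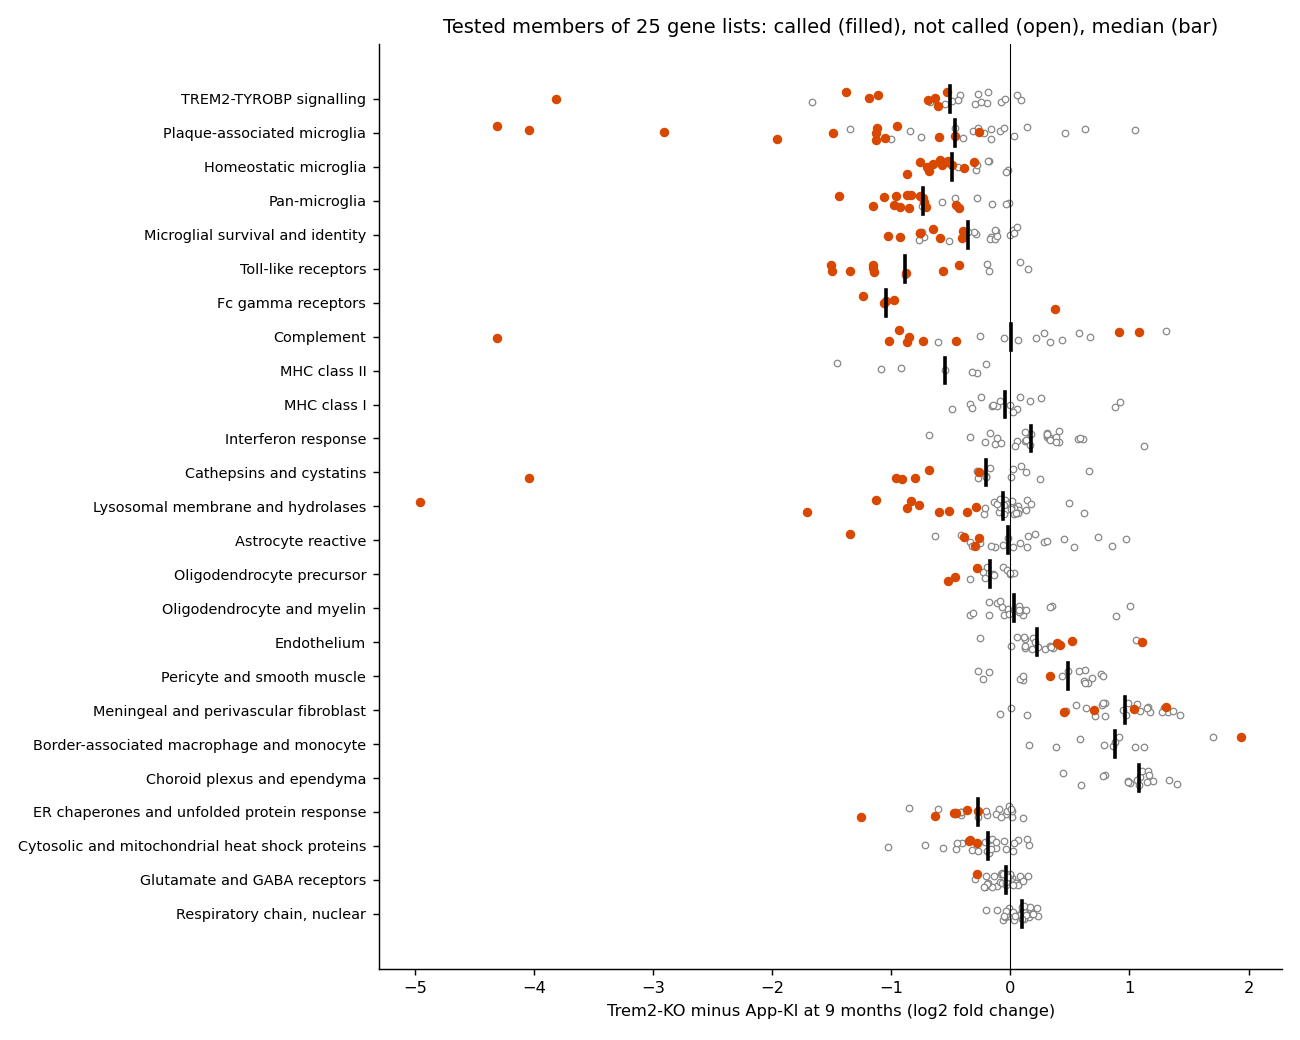
Log2 difference between Trem2-KO and App-KI at 9 months (horizontal axis) for the tested members of 25 gene lists (vertical axis); filled points were called, open points were not, and the bar marks the median of the list. The pan-microglial list has its median at -0.74 with all members below 0, and the fibroblast list its median at 0.96.

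Outside the lists, 153 lower genes were called, and the following were chosen after their values were seen. Pdcd1 (PD-1) was at 2.79, 2.25 and 1.57 CPM in App-KI and at 0.221, 0.240 and 0.159 CPM in Trem2-KO (-3.38 ± 0.49, adjusted p = 0.000288). The metabolite receptor Hcar2 was at 1.69, 1.77 and 1.64 CPM and at 0.176, 0.192 and 0.265 CPM (-2.99 ± 0.43, 0.000254), and the proton sensor Gpr65 at 1.05 to 1.85 CPM and at 0.176 to 0.318 CPM (-2.61 ± 0.46, 0.00246). All of these are near the detection limit in Trem2-KO. Lag3 (-0.85 ± 0.20) lost its call without App-KI 1 or 3 or Trem2-KO 1 (0.106 to 0.120), and the medium-chain fatty acid receptor Gpr84 (-1.52 ± 0.34) without App-KI 1 or 3 or Trem2-KO 1 or 2 (0.0542 to 0.108). The oxysterol receptor Gpr183 fell by 1.05 ± 0.18, and the membrane protease St14, which the rule on large differences names, by 1.69 ± 0.24 (adjusted p = 0.000267). Heparanase (Hpse, -1.62 ± 0.36) lost its call without App-KI 2 (0.127) or Trem2-KO 2 (0.0776), and Siglecf (-1.52 ± 0.36) without any library but Trem2-KO 1 (0.0669 to 0.138).

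Genes of the phagocyte oxidase and of eicosanoid synthesis were also among them. Ncf1, a cytosolic subunit of the oxidase, fell by 0.73 ± 0.14, and the proton channel Hvcn1, which sustains its activity, by 1.38 ± 0.21 (adjusted p = 0.00047). Tbxas1, the thromboxane synthase, fell by 0.96 ± 0.15. Alox5, the 5-lipoxygenase, fell by 1.25 ± 0.27, but lost its call without App-KI 3 (0.0865). Lysozyme (Lyz2) was at 88.8, 80.7 and 88.1 CPM in App-KI and at 47.4, 49.1 and 44.6 CPM in Trem2-KO (adjusted p = 4.60e-06). The adaptor Samsn1 (-1.38 ± 0.16) and the myosin Myo1f (-1.34 ± 0.13) fell as well, and so did Mpeg1 (perforin-2, -1.11 ± 0.10) and Plek (pleckstrin, -0.91 ± 0.08). The nonclassical class II genes H2-Oa (-2.58 ± 0.60) and H2-Ob (-1.16 ± 0.27) were called, but H2-Oa not without any library but Trem2-KO 3 (0.0583 to 0.127) and H2-Ob not without App-KI 2 or 3 or Trem2-KO 2 or 3 (0.0682 to 0.107).

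Astrocytes and oligodendrocyte-lineage cells differed in few genes. Gfap, the intermediate filament of reactive astrocytes, was at 2045, 2006 and 1893 CPM in App-KI and at 1469, 1563 and 1511 CPM in Trem2-KO, with no overlap (-0.39 ± 0.05, adjusted p = 0.000116). Of 25 reactive-astrocyte genes 4 were called lower and none higher: Gfap, Serpina3n, Cd14 and Ctsb, of which microglia also express the last pair. Serpina3n was at 71.8, 79.4 and 72.4 CPM and at 60.4, 63.1 and 58.5 CPM, and its call (0.0191) was lost without App-KI 2 (0.0998) or Trem2-KO 1 (0.0629). Vim was at 41.9 ± 5.31 and 44.2 ± 1.48 CPM with overlap (0.804). Of 16 homeostatic astrocyte genes only the water channel Aqp4 was called (-0.25 ± 0.06, 0.0334), and not without any library but Trem2-KO 2 (0.0600 to 0.142). None of 20 myelin genes was called, and Mbp was at 3320 ± 206 and 3079 ± 419 CPM (0.776). In the precursor list 3 of 14 were called lower: Gpr17, a receptor of committed precursors (50.2, 51.4 and 56.4 CPM against 32.6, 37.1 and 40.4 CPM, adjusted p = 0.00204), Olig2 (-0.46 ± 0.08, 0.00262) and Olig1 (-0.28 ± 0.07, 0.0482), the last not without any library but App-KI 3 (0.0780 to 0.180). Pdgfra, the receptor of early precursors, was at 55.9 ± 3.74 and 53.4 ± 4.63 CPM (0.792). Of 15 genes of plaque-responsive oligodendrocytes, Anxa3 (-0.42 ± 0.08), Serpina3n and Cst7 were called lower.

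A minority of the genes of meninges and vessels were called higher in Trem2-KO, and none of them lower. Of 28 fibroblast markers 4 were called higher (14.3%, against 0.684% of all tested genes) and none lower. The median was 0.96, 20 had an unadjusted p under 0.05, and 16 were higher in every Trem2-KO library than in any App-KI library (8.28% of all genes). Fbln1 (fibulin-1) was at 16.8, 17.8 and 16.2 CPM in App-KI and at 31.6, 24.7 and 26.6 CPM in Trem2-KO (0.70 ± 0.10, adjusted p = 0.000384). The transporter Slc6a20a was at 25.7, 30.1 and 20.7 CPM and at 67.0, 49.3 and 73.3 CPM (1.30 ± 0.22, 0.0188). Its call was lost without App-KI 1 (0.0761), App-KI 3 (0.0753) or Trem2-KO 1 (0.0891), that of Aebp1 without any App-KI library or Trem2-KO 1 (0.0655 to 0.110) and that of Serpinf1 without App-KI 1 or 3 or Trem2-KO 1 or 2 (0.0503 to 0.115). Without App-KI 1, App-KI 3 or Trem2-KO 1 the list had 1 call, and with DESeq2 in place of edgeR 12. With the fibroblast score as a covariate it had 0. That score is the mean of these same markers, so this count cannot tell whether they differed. The collagens Col1a1 (1.06 ± 0.28, 0.105), Col1a2 (1.29 ± 0.29, 0.0759) and Col3a1 (1.42 ± 0.49, 0.240) were not called.

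Of 20 endothelial genes 4 were called higher (20%, against 0.684% of all tested genes), with a median of 0.22. Kdr (VEGF receptor 2) was at 23.7, 21.1 and 21.6 CPM in App-KI and at 32.4, 33.8 and 28.7 CPM in Trem2-KO (0.52 ± 0.09, 0.00331). Gpr182, a scavenger receptor for chemokines, was at 3.69, 4.93 and 3.21 CPM and at 9.93, 6.996 and 8.64 CPM (1.10 ± 0.20, 0.00272). Slco1a4, a blood-brain barrier transporter, rose by 0.42 ± 0.08 (0.00746), while Tm4sf1 (0.39 ± 0.09) lost its call without App-KI 1 or 3 or Trem2-KO 1 or 2 (0.0569 to 0.134). General endothelial genes differed less: Cldn5 was at 19.1 ± 2.51 and 23.4 ± 1.85 CPM with overlap (0.193), and Pecam1 at 25.4 ± 4.49 and 29.0 ± 3.49 CPM (0.595). Vwf, which is strongest in larger vessels, was at 23.9, 36.8 and 19.1 CPM and at 58.5, 51.4 and 56.9 CPM (1.05 ± 0.30, 0.162). Of 17 mural genes only Pdgfrb was called (0.33 ± 0.08, 0.0448), and not without any library but App-KI 1 (0.0824 to 0.242). The median of the mural list was 0.48, with 14 differences above 0 and 3 below.

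Of the markers of border-associated macrophages, which sit in the meninges and around vessels, few passed the test. The 15 markers summed to 28.9 to 40.3 CPM in App-KI and 45.4 to 59.9 CPM in Trem2-KO, and 8 were higher in every Trem2-KO library. Of 11 tested, 1 was called higher and none lower: Clec10a, at 0.105, 0.375 and 0.131 CPM and at 0.971, 0.719 and 0.743 CPM, near the limit of a count of 0 in App-KI. It lost its call without any library but App-KI 2 (adjusted p 0.0531 to 0.198). Mrc1 (CD206) was at 5.12, 5.68 and 2.43 CPM and at 8.69, 6.996 and 8.64 CPM (0.86 ± 0.24, 0.0874), and Cd163 at 2.73 ± 0.47 and 5.14 ± 1.59 CPM (0.0667). No member of the choroid plexus list was called, and none had an unadjusted p under 0.05. All 17 differences in that list were above 0, with a median of 1.08.

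Of the 131 higher genes, 112 are in no list. Those with the smallest p-values included several extracellular matrix and vessel-wall genes. Thbs2 (thrombospondin-2) was at 8.17, 7.83 and 7.41 CPM in App-KI and at 14.7, 13.3 and 13.5 CPM in Trem2-KO (0.82 ± 0.12, adjusted p = 0.000254). Ecm1 was at 8.07 to 9.65 CPM and at 16.0 to 17.2 CPM, and Colec12, a collectin scavenger receptor, at 15.4 to 17.2 CPM and at 23.5 to 34.8 CPM. In all of these the groups stood apart. Itm2a rose by 0.48 ± 0.07, the Wnt inhibitor Apcdd1 by 0.45 ± 0.07, the transcriptional regulator Id3 by 0.51 ± 0.09, Mxra8 by 0.85 ± 0.15 and the aldehyde oxidase Aox3 by 1.41 ± 0.21. The interferon-induced Ifitm2 (0.94 ± 0.17), the glutathione transferase Gstm2 (1.14 ± 0.21) and the matrix-associated Cpxm1 (0.74 ± 0.13) rose, and the heparan sulfate proteoglycan Sdc1 (1.22 ± 0.25) lost its call only without App-KI 3 (0.0699). The folate carrier Slc19a1 (0.61 ± 0.11), the neuronal amino acid transporter Slc6a15 (0.29 ± 0.05), the polarity gene Pard6g (0.74 ± 0.12) and Armcx5 (0.42 ± 0.07) rose too. Some higher genes at low levels rested on less: Arhgef16 (1.69 ± 0.39), Wnt6 (1.40 ± 0.35), Ackr4 (1.29 ± 0.30), Zic2 (1.26 ± 0.28), Alx4 (1.10 ± 0.27) and Slc26a7 (1.31 ± 0.29) were at 0.459 to 5.16 CPM, and each lost its call without App-KI 3 and at least 2 other libraries (adjusted p up to 0.140, 0.171, 0.174, 0.112, 0.143 and 0.128). The summed fibroblast markers are higher in every Trem2-KO library too. With their score as a covariate none of the 131 was called higher, while the median SE over all genes rose as given above, so a lost call does not show a lost difference. A set of 61 higher genes holds those that the naming rule covers and others picked outside it. Some of them are fibroblast markers from which the score was made. The median difference of the 61 went from 0.82 to 0.405 in that fit. The difference was at least as large in 8 of them, among them Kdr (0.55), Pard6g (0.83), Slc19a1 (0.75) and Apcdd1 (0.49), and below 0 in 6, among them Slc26a7 (-0.07), Serping1 (-0.03) and Fcgrt (-0.06). Colec12 (0.22) and Gpr182 (0.31) lay between. The part of the fibroblast markers in these differences was not tested.

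Some chaperones of the endoplasmic reticulum (ER) were lower. These proteins fold secreted and membrane proteins, and their genes are switched on together by the unfolded protein response through the factors ATF6 and XBP1. Of 25 tested, 7 were called lower and none higher, with a median of -0.27. Calr (calreticulin) was at 694, 598 and 717 CPM in App-KI and at 475, 515 and 456 CPM in Trem2-KO (-0.47 ± 0.07, adjusted p = 0.00104). Pdia6, a disulfide isomerase, was at 300, 279 and 354 CPM and at 196, 215 and 190 CPM (-0.63 ± 0.09, 0.0028). In both genes App-KI 3 was highest and the groups did not overlap. Hsp90b1 (GRP94) was at 634, 578 and 768 CPM and at 492, 506 and 448 CPM (-0.45 ± 0.10, 0.043). Derl3, which helps remove misfolded proteins, was at 2.79, 1.98 and 3.94 CPM and at 0.927, 1.63 and 1.06 CPM (0.024). Creld2 (0.0475), Hyou1 (0.0253) and Sel1l (0.0173) were called as well. Hspa5 (BiP), a main chaperone of the ER, was at 828, 723 and 1131 CPM and at 577, 625 and 562 CPM without overlap (-0.60 ± 0.16, 0.131). The stress factors Atf4 (-0.01 ± 0.06, 0.947) and Ddit3 (CHOP, 0.11 ± 0.10, 0.701) differed less, and Xbp1 was at -0.21 ± 0.07 (0.169). Calr and Pdia6 held in every fit that left out a library, while Sel1l was not called without App-KI 3 (0.127) or Trem2-KO 3 (0.0513), and Derl3 and Hyou1 were not without App-KI 1 or 3 or Trem2-KO 1 or 3 (0.0578 to 0.176 and 0.0583 to 0.159). Hsp90b1 (0.0617 to 0.153) and Creld2 (0.0532 to 0.185) held in the fit without App-KI 2 and in no other. The list had 3 calls without App-KI 1 or Trem2-KO 1, and 2 without App-KI 3 or Trem2-KO 3.

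The 5 called chaperone genes that hold an ER stress element upstream of their start are shown because they are the called members that share it. The element is a CCAAT box, 9 bases and CCACG, searched on both strands with any base allowed between the boxes, in the 250 bases before each start in RefSeq's mouse annotation (GRCm38.p6, another build than that of the counts). Capitals mark the matches, a match on the other strand appearing as the reverse complement of the element. Each sequence runs 5′ to 3′ on the gene's own strand. They lie at chr8:84846932-84847181 on the minus strand (Calr), chr12:17266339-17266588 on the plus strand (Pdia6), chr10:86705445-86705694 on the minus strand (Hsp90b1, with 2 matches), chr10:75893148-75893397 on the plus strand (Derl3) and chr15:88819396-88819645 on the plus strand (Creld2).
Calr: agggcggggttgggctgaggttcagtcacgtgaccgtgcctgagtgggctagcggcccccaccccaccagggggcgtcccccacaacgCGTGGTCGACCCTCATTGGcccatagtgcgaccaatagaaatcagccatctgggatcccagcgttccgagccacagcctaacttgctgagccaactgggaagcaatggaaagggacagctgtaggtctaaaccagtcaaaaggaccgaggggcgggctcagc
Pdia6: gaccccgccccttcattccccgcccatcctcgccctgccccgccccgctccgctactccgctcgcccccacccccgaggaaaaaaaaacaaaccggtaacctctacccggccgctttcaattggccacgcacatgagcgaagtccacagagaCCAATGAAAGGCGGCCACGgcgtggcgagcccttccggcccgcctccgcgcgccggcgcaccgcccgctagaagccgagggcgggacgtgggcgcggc
Hsp90b1: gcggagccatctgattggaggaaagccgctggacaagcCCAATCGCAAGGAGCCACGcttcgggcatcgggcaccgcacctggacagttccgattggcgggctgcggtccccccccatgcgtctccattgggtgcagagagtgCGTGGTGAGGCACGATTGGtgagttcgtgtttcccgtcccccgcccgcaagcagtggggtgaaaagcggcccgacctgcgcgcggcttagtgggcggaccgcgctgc
Derl3: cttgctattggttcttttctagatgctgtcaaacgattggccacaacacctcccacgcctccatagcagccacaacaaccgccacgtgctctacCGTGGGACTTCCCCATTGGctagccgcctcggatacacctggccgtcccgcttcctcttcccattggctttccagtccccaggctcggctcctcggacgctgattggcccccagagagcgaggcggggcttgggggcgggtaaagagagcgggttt
Creld2: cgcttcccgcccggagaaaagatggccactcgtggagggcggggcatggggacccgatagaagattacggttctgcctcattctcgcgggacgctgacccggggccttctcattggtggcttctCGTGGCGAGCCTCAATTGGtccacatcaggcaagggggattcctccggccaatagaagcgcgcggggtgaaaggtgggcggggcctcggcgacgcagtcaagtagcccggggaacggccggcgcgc

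Among 27025 genes in the promoter table, 35 held this element (0.13%), and among the 12549 tested genes found there 19 did (0.151%). Of the ER chaperone genes 21 were in the table, and 9 held it (42.9%). These were 5 of the 6 called members found there (83.3%) and 4 of the 15 that were not called (26.7%): Hspa5, Canx, Dnajc3 and Syvn1. Of the 5, only Calr and Pdia6 kept their calls without each library in turn, so this split rests in part on unstable calls. A match is a description of letters, not of binding. The core that PU.1 binds, GAGGAAGT, was held by 11 of the 201 promoters of lower genes (5.47%) and by 331 of the 12549 tested (2.64%). C1qc, Inpp5d, Vav1 and Cd37 are among the lower genes that held it. By list, 2 of 18 pan-microglial and 0 of 12 homeostatic genes did. Of the plaque-associated genes 0 of 10 called and 1 of 16 not called (Spp1) did.

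A few cytosolic chaperones were lower as well. Of 26 heat shock genes 3 were called lower and none higher, with a median of -0.19. Hspa8 (HSC70), the constitutive chaperone, was at 2328, 2327 and 2767 CPM in App-KI and at 1893, 1987 and 1976 CPM in Trem2-KO (-0.34 ± 0.06, adjusted p = 0.00204). The cochaperones Ahsa1 (-0.28 ± 0.06) and Stip1 (-0.35 ± 0.08) lost their calls without App-KI 1 or 3 or Trem2-KO 1 or 3 (0.0508 to 0.163 and 0.0724 to 0.126), and Stip1 also without Trem2-KO 2 (0.0559). Leaving out App-KI 2 gave 6 calls in this list and leaving out Trem2-KO 1 or 3 gave 1. The inducible Hspa1a (adjusted p = 0.143) and Hspa1b (0.196), nearly identical genes, were highest in App-KI 3, at 18.2 and 37.7 CPM against 9.91 to 10.99 and 19.1 to 19.8 CPM in the other App-KI libraries. Hsp90ab1 was at 1844 ± 144 and 1594 ± 6.31 CPM (0.0532).

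The cold-inducible RNA-binding proteins Cirbp and Rbm3 were higher. Cirbp was at 42.4, 42.4 and 33.1 CPM in App-KI and at 64.1, 66.0 and 71.7 CPM in Trem2-KO (0.77 ± 0.08, adjusted p = 4.21e-06), the smallest p among all higher genes. Rbm3, the other known cold-shock protein of this kind, was at 64.7, 67.1 and 54.2 CPM and at 86.0, 85.8 and 87.6 CPM (0.48 ± 0.07, 0.000333). App-KI 3, the highest of its group in chaperones, was the lowest in both. The other 14 genes of the list, splicing factors and kinases, were not called. With the fibroblast score as a covariate no chaperone and neither cold-inducible gene was called. The differences of Cirbp and Rbm3 were 0.68 and 0.39 in that fit, against 0.77 and 0.48 without the score, while the median of the ER chaperone list was -0.007.

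A few single genes outside these themes stood out. Amd2, a copy of the S-adenosylmethionine decarboxylase gene Amd1, was at 6.01, 6.43 and 7.28 CPM in App-KI and at 1.99, 1.68 and 1.38 CPM in Trem2-KO (-1.95 ± 0.21, adjusted p = 4.41e-06). Amd1 itself was at 124 ± 5.84 and 124 ± 5.40 CPM, and how reads were divided between the copies is not given in the sources used here. The clock repressor Nr1d1 was higher (0.33 ± 0.07, 0.013), but not without App-KI 1 (0.053) or App-KI 3 (0.101), and its partners Arntl (0.225), Dbp (0.0847) and Per2 (0.886) were not called. The long noncoding RNA Miat fell by 0.36 ± 0.05 (0.000333).

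Few neuronal genes were called, which says little by itself, as only 2.08% of all tested genes were. Of 33 glutamate and GABA receptor genes, 1 was called, Gabra2 (-0.28 ± 0.06, 0.0217), and not without App-KI 1 or 3 or Trem2-KO 1 or 2 (0.0748 to 0.147). Gria1 was at 929 ± 57.5 and 971 ± 40.5 CPM and Grin1 at 236 ± 15.8 and 236 ± 16.4 CPM. Of 17 genes of dentate, CA1 and CA3 neurons only Wfs1, a CA1 marker, was called (-0.33 ± 0.08, 0.0406), and not without any library but App-KI 2 (0.0512 to 0.175). None of 17 neuropeptide, 18 immature neuron or 23 immediate early genes was called. Arc was at 154 ± 44.3 and 149 ± 24.1 CPM and Fos at 22.1 ± 8.33 and 19.9 ± 2.55 CPM, with App-KI 3 highest in both. None of 34 nuclear and 12 mitochondrial genes of the respiratory chain was called. Of 30 genes of glycolysis and the TCA cycle only hexokinase 2 (Hk2), which immune cells use, was called (-0.57 ± 0.13, 0.0257), and not without any library but Trem2-KO 3 (0.0617 to 0.131).

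The 3-month libraries show which of these differences were already there. At 3 months 113 genes were called between the genotypes (0.59%), 32 higher (0.167%) and 81 lower (0.423%), and 45 were called at both ages, 36 lower and 9 higher at 9 months. The comparisons share no library. The pan-microglial score was 4.08 to 4.09 in App-KI and 3.97 to 4.04 in Trem2-KO at 3 months. No plaque-associated gene was called at 3 months, while C1qc differed by -0.11 and Csf1r by -0.07 at that age. Trem2 at 3 months was at 10.4, 8.05 and 9.17 CPM in App-KI and at 1.85, 1.93 and 2.17 CPM in Trem2-KO. The ER chaperones had 9 lower calls with a median of -0.46 at 3 months, and Cirbp differed by 0.77 then as at 9 months. Amd2 differed by -2.84.

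The test of the difference between ages, an interaction term, was called for 51 genes (0.266%), 11 higher (0.0574%) and 40 lower (0.209%). By list it was called for 10 of 22 pan-microglial, 5 of 32 plaque-associated, 4 of 19 homeostatic and 3 of 24 TREM2-TYROBP signalling genes, all with a more negative difference at 9 months. None of 25 ER chaperone genes was called for it, and Calr (0.09), Pdia6 (0.08) and Cirbp (0.00) had interaction values near 0 with adjusted p-values of 0.990, 0.994 and 0.999. Itgax (-2.98 ± 0.97, adjusted p = 0.458) and Clec7a (-1.49 ± 0.73, 0.879) were not called for it. At 3 months both were near the detection limit, with Itgax at up to 0.390 CPM in App-KI and up to 0.137 CPM in Trem2-KO. Clec7a was at up to 0.439 and up to 0.274 CPM. With SEs this wide, the missing calls do not show equal differences at both ages. On the higher side Gpr182 (1.59, adjusted p = 0.0134), Kdr (0.82, 0.00476), Ecm1 (0.98, 0.0238) and Fbln1 (0.75, 0.0305) were called. Their 3-month differences were below 0 but not called (adjusted p of 0.374, 0.166, 0.878 and 0.937). The fibroblast marker score was 3.21 to 3.68 in App-KI and 3.19 to 3.54 in Trem2-KO at 3 months, which overlap. With that score as a covariate no interaction was called (818 at an unadjusted p under 0.05), and with DESeq2 99 were.

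**Figure D5:**
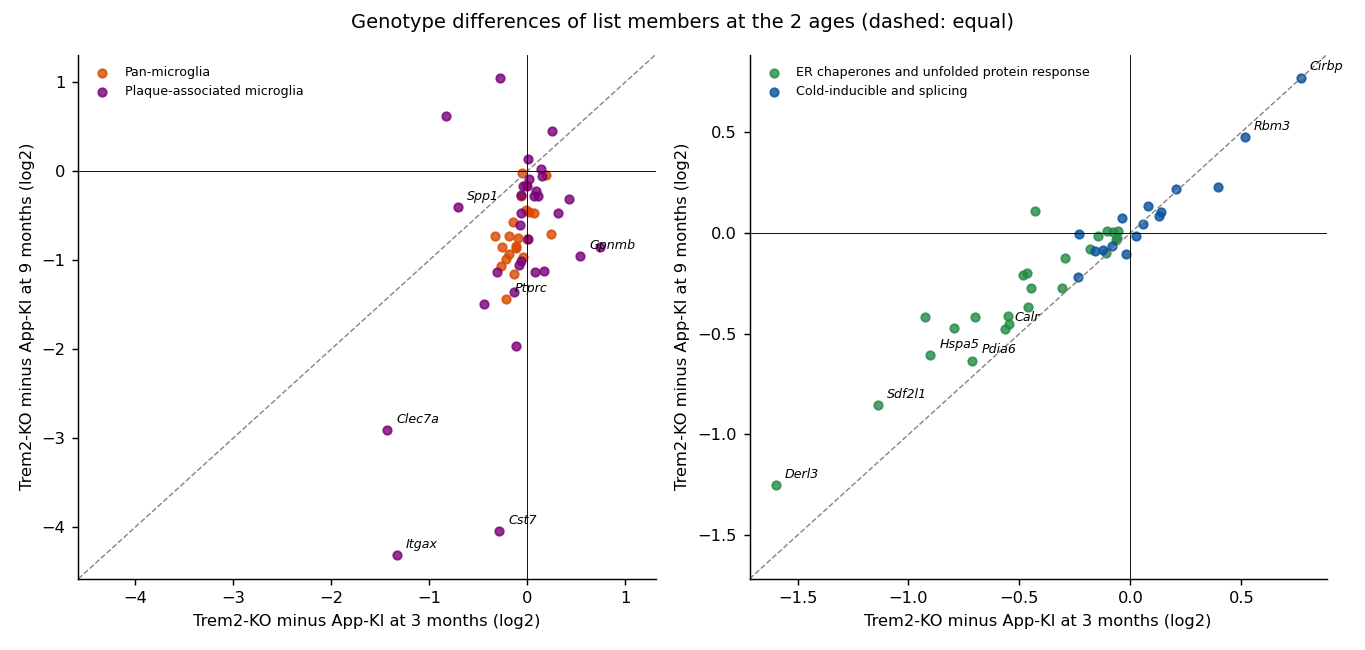
Log2 difference between Trem2-KO and App-KI at 3 months (horizontal axis) against 9 months (vertical axis); the left panel shows pan-microglial and plaque-associated genes, the right panel ER chaperone and cold-inducible genes, and the dashed line marks equal differences. Microglial genes such as Ptprc (-0.22 and -1.44) lie below the line, while Calr and Cirbp (0.77 at both ages) lie close to it.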

How the data were processed

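RNA from the hippocampus of 12 male mice was sequenced in bulk, and the authors deposited raw counts per gene as whole numbers. Tools named, without their roles, are DESeq2 1.36.0, R 4.2.0, featureCounts 2.0.3 and STAR 2.7.10a with the build GRCm39, per the submitters' processing notes. For the strand setting, the annotation and the treatment of shared reads the sources used here give nothing. Counts of near-identical, overlapping or antisense genes are therefore uncertain. Symbols came from GENCODE M21 (GRCm38), which matched 52073 of 56980 identifiers, and the others hold at most 0.252% of a library's reads. Genes were filtered by edgeR's filterByExpr (minimum count 10, total 15), libraries scaled by TMM, and genotypes compared at each age by edgeR's quasi-likelihood test (edgeR 4.0.16, limma 3.58.1, R 4.3.3) with 1 term per group over all 12 libraries, 8 residual degrees of freedom and p-values adjusted over 19152 genes by the Benjamini-Hochberg method. SEs were derived from the fold change without shrinkage and its F statistic; printed fold changes are moderated. Scores are means of log2 CPM (prior count 2). The steps were tested on simulated data. Alternatives were DESeq2 1.42.0, other scalings and filters, the 6 libraries alone, marker scores as covariates and leaving out each library. The genes named are Trem2 and App, called genes with the smallest p or largest change in each direction, and, for each of the 52 lists, called members and a few that were not called, by abundance or p; exceptions are stated, and some genes are not reported here. The comparison and the lists were chosen with earlier results of these data known.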

Additional observations from a re-analysis of the deposited data

Results flagged for a closer look

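The difference between the genotypes was itself different at 9 and at 3 months, by edgeR's test of the interaction of age and genotype, in 48 of the genes called at 9 months. The values of 46 of them are given, as the 9-month minus the 3-month log2 difference. In 39 genes the difference was lower at 9 months, and 37 of these are named. Of microglial receptors and their signalling, these were Trem2 (-1.61), Tyrobp (-1.03), Csf1r (-0.69), Cx3cr1 (-0.57), Cd14 (-1.62), Fcgr3 (-0.77), Lair1 (-0.73), Vsir (-0.74), Ly86 (-1.02), Ptprc (-1.22), Itgb2 (-0.94), Selplg (-0.53), Cd53 (-0.77) and Inpp5d (-0.79). Of secreted and complement genes they were Cst7 (-3.77), Ccl6 (-1.85), C1qa (-0.60), C1qb (-0.55), C1qc (-0.75), Grn (-0.50) and Lpl (-0.78). Of lysosomal genes they were Ctss (-0.92), Ctsz (-0.70), Cd68 (-1.204), Gusb (-0.72), Laptm5 (-0.72), Slc11a1 (-1.37), Gpnmb (-1.49) and Mpeg1 (-0.75). The rest were Samsn1 (-1.76), Klhl6 (-1.37), Hcls1 (-1.15), Myo1f (-1.06), Plek (-0.71), Plxdc2 (-0.56), the potassium channel Kcnj2 (-0.85) and, from astrocytes, Gfap (-0.35). In 9 genes the difference was higher at 9 months: Fbln1 (0.75), Ecm1 (0.98), Colec12 (0.997), Aox3 (1.503), Osr1 (1.42), Lef1 (0.83), Klf2 (0.85), Kdr (0.82) and Gpr182 (1.59). Of the 48, 20 had the opposite sign at 3 months, 11 of them lower and 9 higher at 9 months. The 3-month differences of the 11 ran from 0.003 (Cd53) to 0.544 (Gpnmb). Those of the 9 ran from -0.041 (Fbln1) to -0.484 (Gpr182). The sign alone does not show a reversal with age. Cst7 was low in both genotypes at 3 months, at 0.0976 to 0.856 CPM in App-KI and 0.206 to 0.484 CPM in Trem2-KO.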

How the results depend on the processing

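No paired analysis was possible because the labels give only mouse identifiers and no replicate numbers that the groups share. Of 203 called genes, covered by the naming rule or picked outside it, 117 stayed called without each of the 6 libraries. By DESeq2 194 were called (8 had no adjusted p there), and 22 stayed called with the fibroblast score as a covariate. The 398 calls at 9 months became 831 without a filter on low counts (47.4% of them lower against 67.1%), 23 with the fibroblast score and 175 to 556 when a library was left out. The last of these values is without Trem2-KO 3 (51.3% lower). Without both libraries low in choroid plexus markers, an alternative added after seeing the data, 376 were called. The 51 interaction calls became 99 with DESeq2, 187 without a filter, 0 with the fibroblast score, 82 with the choroid plexus score, 33 without both low-choroid libraries and 29 to 76 when a library was left out. The 113 calls at 3 months became 218 in the libraries of that age alone, 259 with DESeq2, 347 without a filter, 181 with the choroid plexus score and 26 to 75 when a library was left out. With the fibroblast score, 6 genes changed sign, which at these small values does not show a reversal: Slc26a7 (-0.074), Plac9a (-0.275), Serping1 (-0.034), Fcgrt (-0.056), Nid1 (-0.136) and Thbd (-0.029). That score separates the genotypes at 9 months, so the covariate also takes up part of the genotype term, and the median SE rose from 0.123 to 0.24. Depth limits genes under about 3 counts in a library.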
